A study of Mus musculus with 24 samples.

Results

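A set of 10 genes of the endoplasmic reticulum (ER) folding machinery was followed in mouse liver: *Hspa5*, *Hsp90b1*, *Pdia4*, *Dnajb9*, *Sdf2l1*, *Creld2*, *Manf*, *Hyou1*, *Xbp1*, and *Herpud1*. They were chosen by name as ER chaperones and genes of the Xbp1 pathway, with earlier results of these data known. All 10 are among the 23972 genes counted. The 24 liver RNA-Seq libraries came from female mice of both genotypes. Among controls, 7 received vehicle and 3 received FGF21, and among *Lmna* ADKO mice, 6 received vehicle and 8 received FGF21. Every mouse carried *Lmna* alleles with loxP sites around exons 10 and 11. *Lmna* ADKO mice also carried Adipoq-Cre, which deletes *Lmna* in adipocytes and leaves a lipodystrophic mouse whose hepatocytes keep the gene, whereas controls lacked Cre. By the study's account, mice were 12 to 14 weeks old at the start, were housed at 22°C, and ate a high-fat diet for 4 weeks before retro-orbital injection of an AAV8 vector for FGF21 or of vehicle, and livers were taken 8 weeks later. The treatment is named only as a rescue in the labels and was taken to be FGF21 from the study's account. Counts on *Fgf21* do not set the treated groups apart, with means of 4.01 CPM (counts scaled to library size) in vehicle-treated and 4.78 CPM in FGF21-treated controls, and of 7.99 and 5.36 CPM in vehicle- and FGF21-treated *Lmna* ADKO mice. Liver *Lmna* does not check the genotype labels, since Cre is not active in hepatocytes. With vehicle, *Lmna* was at 18.6 ± 2.47 CPM (SD, n = 7) in controls, and *Lmna* ADKO mice had 26.7 ± 2.57 CPM (SD, n = 6). Libraries carry separate animal numbers and were taken as separate mice, numbered here within each group.

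The ER folds secreted and membrane proteins, a large load in hepatocytes, which make most plasma proteins. When unfolded proteins accumulate, the sensors IRE1 (encoded by *Ern1*), ATF6, and PERK (encoded by *Eif2ak3*) start the unfolded protein response. IRE1 splices *Xbp1* mRNA so that it encodes an active transcription factor, ATF6 is cleaved into another, and both raise transcription of chaperones and degradation factors, while PERK slows translation and favours that of ATF4. Gene counts add up spliced and unspliced *Xbp1* mRNA, so they measure the amount of *Xbp1* message and not IRE1 activity.

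In the annotation of GRCm38 (GENCODE M21), *Hspa5* (ENSMUSG00000026864) lies at chr2:34771970-34777547, *Hsp90b1* (ENSMUSG00000020048) at chr10:86690209-86705509, and *Pdia4* (ENSMUSG00000025823) at chr6:47796141-47813430. *Dnajb9* (ENSMUSG00000014905) lies at chr12:44205559-44210326, *Sdf2l1* (ENSMUSG00000022769) at chr16:17130138-17132383, and *Creld2* (ENSMUSG00000023272) at chr15:88819646-88826683. *Manf* (ENSMUSG00000032575) and *Hyou1* (ENSMUSG00000032115) are both on chromosome 9, at chr9:106838312-106891979 and chr9:44379490-44392369. *Xbp1* (ENSMUSG00000020484) lies at chr11:5520659-5525893 and *Herpud1* (ENSMUSG00000031770) at chr8:94386438-94395377. The genes are thus spread over 9 chromosomes.

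Chaperone genes of this group are known for a promoter element, the ER stress response element (ERSE), through which ATF6 and XBP1 act, and 3 such motifs were searched on both strands. These were ERSE (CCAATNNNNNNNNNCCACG), ERSE-II (ATTGGNCCACG), and the unfolded protein response element UPRE (TGACGTGG), in RefSeq windows of GRCm38.p6 that run from 250 bases before to 50 after the annotated start. Windows were present for 8 of the 10 genes, *Manf* and *Hyou1* being the others. A motif was found in 4 of 8 windows, against 0.822% of all 32851 windows, with ERSE in 0.119%, ERSE-II in 0.0365%, and UPRE in 0.676% of all. As chaperone genes of this group were already known for ERSE, this share is not an independent test of the set. *Hsp90b1* held ERSE in both orientations, at bases -212 to -194 and -107 to -89 from the start. *Hspa5* held ERSE at -65 to -47 and *Creld2* held it at -126 to -108 on the reverse strand, whereas *Herpud1* held ERSE-II at -52 to -42. No matches overlapped, and the exact letters were not found in the windows of *Pdia4*, *Dnajb9*, *Sdf2l1*, or *Xbp1*. The 250 bases before the start of the 4 genes are shown because they place the motifs, which are in capitals, beside the expression of these genes below. They read 5′ to 3′ on the strand of the gene, and lie at chr2:34771840-34772089 (plus strand) for *Hspa5*, chr10:86705445-86705694 (minus strand) for *Hsp90b1*, chr15:88819396-88819645 (plus strand) for *Creld2*, and chr8:94386179-94386428 (plus strand) for *Herpud1*.
Hspa5: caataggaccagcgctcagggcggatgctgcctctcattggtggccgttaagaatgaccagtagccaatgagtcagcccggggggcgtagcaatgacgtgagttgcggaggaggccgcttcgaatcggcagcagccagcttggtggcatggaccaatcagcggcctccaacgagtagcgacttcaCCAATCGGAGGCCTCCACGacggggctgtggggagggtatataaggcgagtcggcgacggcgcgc
Hsp90b1: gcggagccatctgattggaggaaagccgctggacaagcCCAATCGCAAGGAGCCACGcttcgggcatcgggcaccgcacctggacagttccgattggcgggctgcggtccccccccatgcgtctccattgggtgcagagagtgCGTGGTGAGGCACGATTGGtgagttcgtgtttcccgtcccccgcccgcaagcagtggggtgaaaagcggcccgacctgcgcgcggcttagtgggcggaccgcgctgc
Creld2: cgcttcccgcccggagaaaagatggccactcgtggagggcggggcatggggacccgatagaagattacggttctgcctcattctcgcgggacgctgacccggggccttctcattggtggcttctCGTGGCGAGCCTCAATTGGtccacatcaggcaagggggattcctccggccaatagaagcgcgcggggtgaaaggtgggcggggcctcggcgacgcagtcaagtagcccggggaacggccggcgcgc
Herpud1: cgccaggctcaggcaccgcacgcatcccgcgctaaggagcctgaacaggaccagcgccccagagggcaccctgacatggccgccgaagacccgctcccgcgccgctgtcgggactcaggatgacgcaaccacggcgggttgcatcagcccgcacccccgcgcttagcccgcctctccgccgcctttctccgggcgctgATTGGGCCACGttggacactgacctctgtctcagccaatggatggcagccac
A match to these letters is a description of the sequence and does not show that a factor is bound there.

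All 10 genes were well counted, with at least 130 reads in every library. Per kilobase of exon, the most abundant in vehicle-treated controls were *Hsp90b1* at 148.9 and *Herpud1* at 128.5 CPM per kb, and the least were *Manf* at 10.3 and *Hyou1* at 8.44 CPM per kb. *Hspa5* (76.7), *Pdia4* (55.1), and *Xbp1* (54.1) lay between them, as did *Sdf2l1* (17.3), *Creld2* (14.5), and *Dnajb9* (13.4 CPM per kb). Vehicle-treated *Lmna* ADKO livers had *Herpud1* at 214.7 and *Hsp90b1* at 162.3 CPM per kb, the reverse order of this pair. FGF21-treated controls had the same order as these livers, at 233.4 and 136.4 CPM per kb. The order of these means was not tested.

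**Figure D1:**
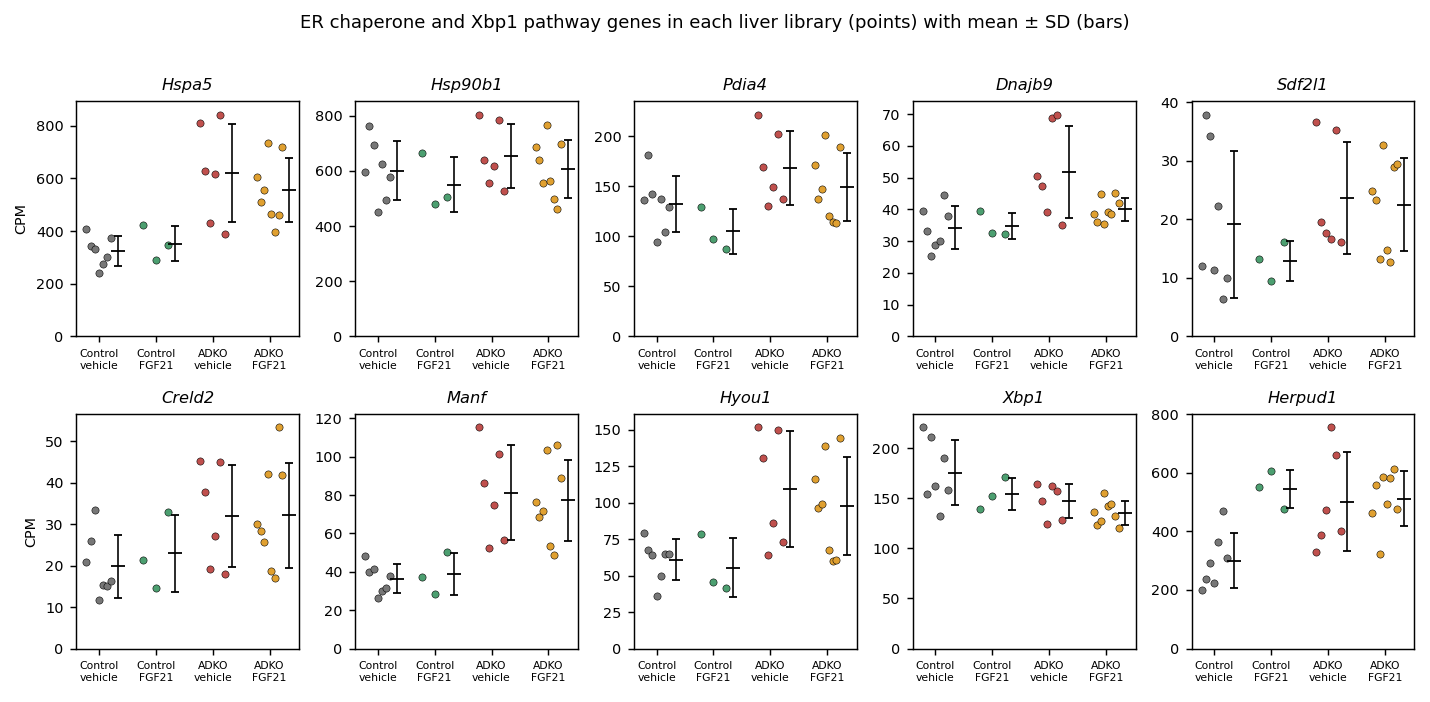
CPM of the 10 genes (linear vertical axes from 0) in each of the 24 liver libraries, by genotype and treatment. Points are libraries and bars are the mean ± SD; for *Manf*, the 6 vehicle-treated *Lmna* ADKO libraries (52.6 to 115.5 CPM) all sit above the 7 vehicle-treated controls (26.1 to 48.3 CPM).

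The first comparison asked how lipodystrophy alters these genes without treatment. Of the 10 genes, 5 were higher in vehicle-treated *Lmna* ADKO livers than in vehicle-treated controls (edgeR, adjusted p under 0.05 over all genes and fold change above 1.5), namely *Manf*, *Hspa5*, *Hyou1*, *Herpud1*, and *Dnajb9*, and 0 were lower. Among all genes tested, 5.12% were called higher and 3.36% lower. The median log2 fold change of the 10 genes was 0.65, against 0.003 for all genes, and 9 of 10 were above 0. At an unadjusted p under 0.05 there were 7 higher and 1 lower, the last being *Xbp1*, where 27% of all genes passed that cut in either direction. The genes were chosen with earlier results of these data known, so these shares are not an independent test of the set.

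*Manf*, which encodes a secreted ER-resident neurotrophic factor, had the largest change of the 10. Its level in vehicle-treated controls had a lowest value of 26.1, a median of 37.8, and a highest value of 48.3 CPM, and in vehicle-treated *Lmna* ADKO livers these were 52.6, 80.7, and 115.5 CPM. The groups did not overlap, as was the case, in the higher direction, for 4.22% of all genes. The log2 fold change was 1.16 ± 0.20 (SE), a 2.23-fold difference (edgeR adjusted p = 0.000272).

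*Hspa5* encodes BiP, the major Hsp70 chaperone of the ER lumen and the protein that holds the sensors inactive. It ranged from 239.6 to 408.1 CPM with a median of 331.3 in vehicle-treated controls, and from 390.3 to 842.8 CPM with a median of 622.3 in vehicle-treated *Lmna* ADKO livers. Of the 6 *Lmna* ADKO libraries, 5 exceeded all controls, and the remaining one, at 390.3 CPM, lay just under the highest control. This gave a log2 fold change of 0.93 ± 0.17 (edgeR adjusted p = 0.000376).

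*Hyou1* encodes a large ER chaperone that exchanges nucleotides on BiP. Its lowest, median, and highest values were 36.3, 64.8, and 79.5 CPM in vehicle-treated controls and 64.2, 108.3, and 152.1 CPM in vehicle-treated *Lmna* ADKO livers, with 4 of 6 libraries above all controls. For *Hyou1*, the log2 fold change was 0.84 ± 0.25 (edgeR adjusted p = 0.0248). *Dnajb9*, which encodes an ER J-domain cochaperone of BiP, ran from 25.4 to 44.6 CPM (median 33.0) in vehicle-treated controls and from 35.2 to 69.9 CPM (median 48.9) in vehicle-treated *Lmna* ADKO livers. Its log2 fold change of 0.60 ± 0.14, or 1.52-fold, was just above the 1.5-fold limit (edgeR adjusted p = 0.00352).

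*Herpud1* encodes an ER membrane protein that assembles the degradation complex. It ran from 198.7 to 469.9 CPM (median 292.9) in vehicle-treated controls and from 328.9 to 756.8 CPM (median 436.5) in vehicle-treated *Lmna* ADKO livers, with 3 of 6 libraries above all controls. For *Herpud1*, the log2 fold change was 0.74 ± 0.20 (edgeR adjusted p = 0.00914). The library order differed from that of the chaperones, as *Lmna* ADKO library 1 was the lowest of its group for *Herpud1* and the highest for *Manf*.

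The other 5 genes did not pass. *Creld2*, which encodes a secreted ER stress-inducible factor, had a log2 fold change of 0.69 ± 0.31 (edgeR adjusted p = 0.143), on levels of 11.8 to 33.4 CPM in vehicle-treated controls and 17.9 to 45.3 CPM in vehicle-treated *Lmna* ADKO livers. *Pdia4*, a protein disulfide isomerase gene, had 0.35 ± 0.16 (adjusted p = 0.156), and *Sdf2l1*, whose product keeps BiP cochaperones active, had 0.30 ± 0.37 (adjusted p = 0.655). *Sdf2l1* was the most variable of the group in controls, where its highest library was 5.99 times the lowest. *Hsp90b1* encodes GRP94, the Hsp90 of the ER, and ran from 452.1 to 762.5 CPM in vehicle-treated controls and from 526.4 to 804.3 CPM in vehicle-treated *Lmna* ADKO livers. Its log2 fold change was 0.12 ± 0.14 (adjusted p = 0.62). This gene carries 2 exact ERSE matches in its promoter window, against 1 in that of *Hspa5*. Imperfect copies of the motif were not searched in either window.

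*Xbp1* was the gene of the 10 with a negative value. Its lowest, median, and highest levels were 131.9, 162.0, and 221.3 CPM in vehicle-treated controls and 124.7, 152.2, and 164.6 CPM in vehicle-treated *Lmna* ADKO livers. The log2 fold change was -0.25 ± 0.11 (edgeR adjusted p = 0.142), and 2 of 6 *Lmna* ADKO libraries were below all controls.

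**Figure D2:**
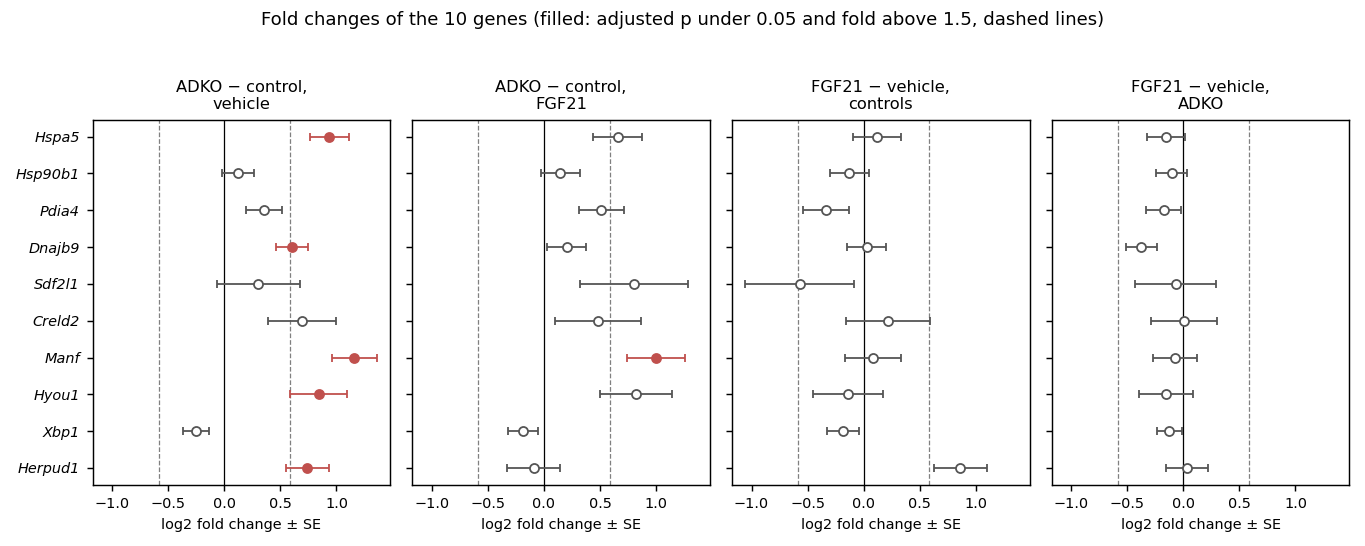
log2 fold changes (horizontal axis) of the 10 genes in the 4 comparisons, with bars for the SE; filled points passed an adjusted p of 0.05 (edgeR) and a fold change of 1.5, which the dashed lines mark. Filled points number 5 in the genotype comparison with vehicle and 1 with FGF21, with none in either treatment comparison.

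Animal numbers come with 3 or with 4 digits, and the groups hold these series unevenly. Of vehicle-treated mice, 6 controls and 1 *Lmna* ADKO mouse have 3-digit numbers, and 1 control and 5 *Lmna* ADKO mice have 4-digit numbers. With the number series as a covariate, 3 of the 5 genes kept their call, namely *Manf* (1.28, adjusted p = 0.000781), *Hspa5* (1.04, adjusted p = 0.000956), and *Hyou1* (1.05, adjusted p = 0.0178). *Herpud1* did not (0.55, adjusted p = 0.154), and *Dnajb9* was under the fold limit (0.53, adjusted p = 0.0424). Within the 3-digit series, the *Lmna* ADKO mouse was at 115.5 CPM for *Manf* against 26.1 to 48.3 CPM in the 6 controls. Within the 4-digit series, the 5 *Lmna* ADKO mice were at 52.6 to 101.6 CPM against 37.8 CPM in the control. *Hspa5* was likewise higher in each series, at 810.7 CPM against 239.6 to 408.1 CPM, and at 390.3 to 842.8 CPM against 372.4 CPM. The other 3 called genes overlapped in 1 of the series. In the 4-digit series, *Hyou1* ran from 64.2 to 150.1 CPM in *Lmna* ADKO mice against 65.0 CPM in the control, and *Dnajb9* ran from 35.2 to 69.9 CPM against 37.8 CPM. In the 3-digit series, *Herpud1* was at 328.9 CPM in the *Lmna* ADKO mouse, within the 198.7 to 469.9 CPM of the controls. Such separation was not limited to called genes, as *Pdia4* and *Creld2*, which were not called, were also higher in each series without overlap. Of the whole set, 7 genes were higher without overlap in the 3-digit series and 6 in the 4-digit series. The share of all genes that did so was not computed, so these counts are not a result about the set. Each separation also rests on 1 mouse on one side, against 6 or 5 of the other genotype. No test was run within a series, as each held 1 vehicle-treated mouse of one genotype.

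Leaving out a single library also moved the count. It was 3 without *Lmna* ADKO library 4, without *Lmna* ADKO library 5, or without control library 5, all vehicle-treated, and 4 or 5 without any other. *Manf* and *Hspa5* were called in every such fit. *Hyou1* missed the p threshold without *Lmna* ADKO library 1 (0.72, adjusted p = 0.0682), 2 (0.78, adjusted p = 0.0549), or 5 (0.73, adjusted p = 0.0685), or without control library 5 (0.80, adjusted p = 0.0505). *Herpud1* fell under the fold limit without *Lmna* ADKO library 4 (0.58, adjusted p = 0.0355), and *Dnajb9* did so in 5 fits, at 0.50 without library 4 or 5 of *Lmna* ADKO and at 0.54 to 0.57 without control library 3, 4, or 5.

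The 10 genes varied among mice of 1 group as well. Among vehicle-treated *Lmna* ADKO livers, library 1 was the highest for 7 of 10 genes and library 5 was among the top 2 for 9, whereas libraries 3 and 6 were among the lowest 2 for 8 and 9. The lowest library of this group for *Manf*, library 3, was at 52.6 CPM, still above all vehicle-treated controls. Among vehicle-treated controls, library 4 was the lowest for 6 of 10 genes. In FGF21-treated *Lmna* ADKO livers, library 4 was among the top 2 for 9 genes, and library 6 was the lowest for 5.

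**Figure D3:**
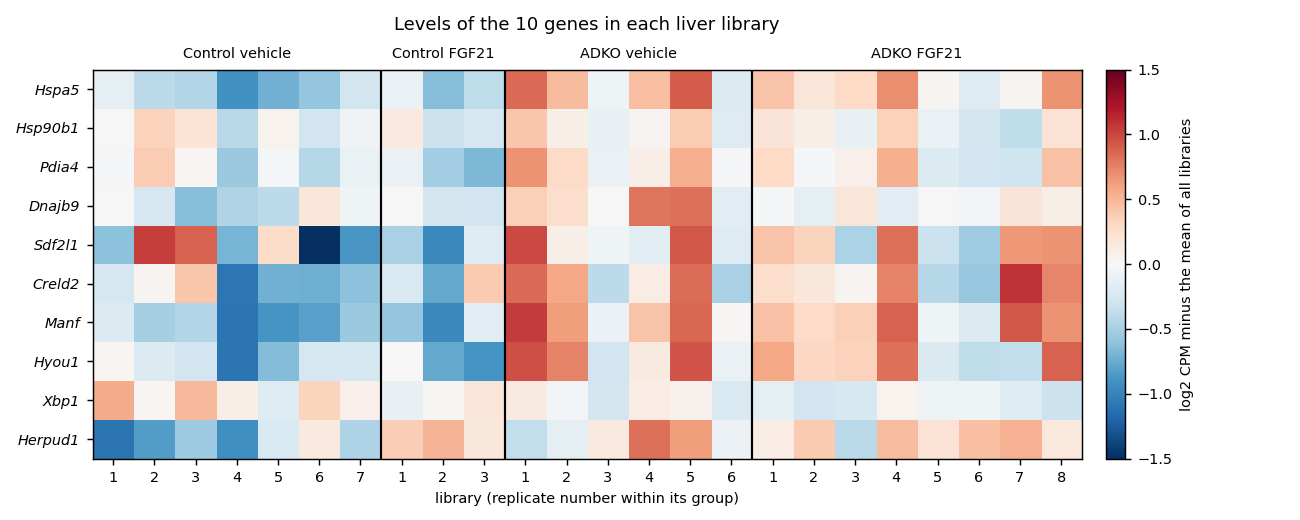
Heat map of the 10 genes (rows) in 24 liver libraries (columns, grouped by genotype and treatment); color is log2 CPM minus the gene's mean over all libraries. *Lmna* ADKO libraries 1 and 5 with vehicle are red for most chaperones. In that group *Herpud1* follows another order of libraries, with library 1 the lowest.

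The second comparison took FGF21-treated mice of both genotypes. Only *Manf* was called, and 0 genes were lower, against 1.61% of all genes called higher and 1.26% called lower. *Manf* was at 37.5, 28.5, and 50.1 CPM in the 3 FGF21-treated control libraries, and had a lowest value of 48.5, a median of 74.0, and a highest value of 106.3 CPM in the 8 FGF21-treated *Lmna* ADKO libraries. Of these 8 libraries, 7 exceeded all 3 controls. *Manf* differed by 0.996 ± 0.26 on the log2 scale (edgeR adjusted p = 0.0277). The call was lost without control library 1 (0.97, adjusted p = 0.0853) or 2 (0.82, adjusted p = 0.172), both FGF21-treated, with the number series as a covariate (0.90, adjusted p = 0.0759), with only 4-digit libraries (0.93, adjusted p = 0.208), and with only the groups compared (0.99, adjusted p = 0.0629).

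*Hspa5* was at 422.1, 288.4, and 346.1 CPM in FGF21-treated controls and ran from 395.4 to 733.3 CPM (median 533.6) in FGF21-treated *Lmna* ADKO livers, of which 7 of 8 libraries exceeded all controls. The log2 fold change was 0.66 ± 0.22 (edgeR adjusted p = 0.0908), and DESeq2 called it (0.64, adjusted p = 0.0344). *Hyou1* had 0.82 ± 0.32 (edgeR adjusted p = 0.174), *Sdf2l1* had 0.80 ± 0.48 (adjusted p = 0.416), *Pdia4* had 0.51 ± 0.20 (adjusted p = 0.174), and *Creld2* had 0.48 ± 0.38 (adjusted p = 0.56). *Dnajb9* (0.20), *Hsp90b1* (0.15), *Herpud1* (-0.09), and *Xbp1* (-0.19) lay nearer 0. The median of the 10 genes was 0.50, against 0.018 for all genes, and 8 of 10 were above 0. With 3 FGF21-treated controls, the SE of each gene was larger than with vehicle.

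The third question was whether FGF21 altered these genes within a genotype. In controls, 0 of 10 genes passed in edgeR and 0 in DESeq2, and 0.0542% of all genes were called in edgeR. At an unadjusted p under 0.05 there was 1 of the 10, against 6.16% of all genes. That gene was *Herpud1*, at 550.2, 605.8, and 477.8 CPM in the 3 FGF21-treated control libraries and at 198.7 to 469.9 CPM in the 7 vehicle-treated ones. The groups did not overlap, which was so, in the higher direction, for 0.997% of all genes. The log2 fold change was 0.86 ± 0.23 (edgeR adjusted p = 0.339). The 3 FGF21-treated controls all have 4-digit animal numbers, and the vehicle-treated control with a 4-digit number was at 309.8 CPM. *Herpud1* levels in FGF21-treated controls were as high as those of *Lmna* ADKO livers, whose means were 501.0 ± 169.6 CPM (SD, n = 6) with vehicle and 511.8 ± 95.1 CPM (SD, n = 8) with FGF21. The other 9 genes had log2 fold changes of -0.57 (*Sdf2l1*) to 0.22 (*Creld2*) in controls.

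In *Lmna* ADKO livers, 0 of 10 genes passed in edgeR and 0 in DESeq2. At an unadjusted p under 0.05 there was 1 of the 10, against 6.71% of all genes (1608). Of all genes, edgeR called 0 (0%) and DESeq2 called 15. Log2 fold changes ran from -0.37 (*Dnajb9*) to 0.03 (*Herpud1*). *Dnajb9* ran from 35.4 to 45.2 CPM (median 39.0) with FGF21 and from 35.2 to 69.9 CPM (median 48.9) with vehicle, a log2 fold change of -0.37 ± 0.14 (edgeR adjusted p = 0.696, unadjusted p = 0.0103). *Manf* differed by -0.08 ± 0.19 (adjusted p = 0.964) and *Hspa5* by -0.16 ± 0.17 (adjusted p = 0.841) between FGF21 and vehicle in *Lmna* ADKO livers. Both differences were smaller than their SE, and 7 of 8 FGF21-treated *Lmna* ADKO libraries lay above all FGF21-treated controls for each.

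The difference between genotypes in the response to FGF21 was tested as an interaction. None of the 10 genes passed in edgeR or DESeq2, and 0.00417% of all genes were called in edgeR. An unadjusted p under 0.05 was found for 1 of the 10, against 4.86% of all genes. That gene was *Herpud1*, with an interaction of -0.83 ± 0.30 on the log2 scale (edgeR adjusted p = 0.984, unadjusted p = 0.0105). For *Dnajb9* it was -0.40 ± 0.22 (adjusted p = 0.984). These comparisons share libraries, so the values are given side by side and no agreement between them is drawn.

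Other genes of the unfolded protein response were read from the same fits. Of 10 genes for sensors and transcription factors, 1 was called higher in vehicle-treated *Lmna* ADKO livers and 0 lower, against 5.12% and 3.36% of all genes. That gene was *Eif2ak3*, the PERK gene, at 8.40 to 13.4 CPM in vehicle-treated controls and 16.7 to 25.9 CPM in vehicle-treated *Lmna* ADKO livers. The groups did not overlap, which was so, in the higher direction, for 4.22% of all genes. *Eif2ak3* had a log2 fold change of 0.96 ± 0.17 (edgeR adjusted p = 0.000229). It was also called with FGF21 (0.95 ± 0.22, adjusted p = 0.0118), but not without FGF21-treated control library 2 (adjusted p = 0.0601) or 3 (0.69, adjusted p = 0.125), with only 4-digit libraries (0.92, adjusted p = 0.162), or with only the groups compared (0.95, adjusted p = 0.0791). *Atf6* had 0.36 ± 0.12 (adjusted p = 0.0356) with vehicle, under the fold limit. *Ern1* had -0.56 ± 0.21 (adjusted p = 0.0733), with 19.8 to 26.8 CPM in vehicle-treated *Lmna* ADKO livers, all below the 27.6 to 46.2 CPM of vehicle-treated controls. The share of all genes that were lower without overlap was not computed. The 3 sensor genes thus had values in both directions. At an adjusted p under 0.05 (edgeR) without the fold limit, 3 of the 10 genes of this list were higher with vehicle and 2 lower. Among all 23972 genes, 2002 were higher and 1621 lower by that rule.

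Of 25 other ER folding factors, 2 were called higher and 1 lower in vehicle-treated *Lmna* ADKO livers, against 5.12% and 3.36% of all genes. Their median log2 fold change was 0.17. The higher ones were *Hspa13* (0.66 ± 0.15, edgeR adjusted p = 0.0027), an Hsp70-like gene, and *Dnajc10* (0.60 ± 0.09, adjusted p = 2.71e-05), which encodes a disulfide reductase with a J domain. The lower one was the disulfide isomerase gene *Pdia5* (-0.86 ± 0.13, adjusted p = 4.19e-05), which was also lower with FGF21 (-0.82 ± 0.15, adjusted p = 0.00244). Without control library 3, control library 5, or *Lmna* ADKO library 3, all vehicle-treated, *Dnajc10* was under the fold limit (0.57, 0.57, and 0.58), as it was without the 3 libraries in which log2 CPM fell most with gene length (0.58). *Hspa13* was also called with FGF21 (0.72 ± 0.19, adjusted p = 0.027), but not without FGF21-treated control library 2 (0.69, adjusted p = 0.12) or 3 (0.50, adjusted p = 0.245). The call was also lost with the number series as a covariate (0.67, adjusted p = 0.0751), with only 4-digit libraries (0.60, adjusted p = 0.318), with only the groups compared (0.71, adjusted p = 0.109), and without those 3 libraries (0.57, adjusted p = 0.0619).

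Of 20 genes of ER-associated degradation, which returns misfolded proteins to the cytosol, 0 were called in edgeR or DESeq2 with vehicle. An unadjusted p under 0.05 was found for 9 of 20, of which 7 were higher, against 27% of all genes in either direction. The 2 with the highest mean log2 CPM over the 24 libraries were *Os9*, a lectin gene (-0.47 ± 0.09, adjusted p = 0.000802), and *Vcp*, the gene of the extracting ATPase (0.28 ± 0.09, adjusted p = 0.0426), both under the fold limit. With FGF21, edgeR called 0 and DESeq2 called 1, and 5 had an unadjusted p under 0.05, against 16.9% of all genes. *Os9* then had -0.29 ± 0.11 (adjusted p = 0.15) and *Vcp* 0.32 ± 0.12 (adjusted p = 0.123).

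Of 25 genes of the translocon and of transport from the ER, 2 were called higher with vehicle and 0 lower, against 5.12% and 3.36% of all genes. Both called genes are for coats of the vesicles that leave the ER. These were *Sec24d* (0.93 ± 0.14, edgeR adjusted p = 3.68e-05) and *Sec23b* (0.65 ± 0.13, adjusted p = 0.00108). Both were also called with FGF21, *Sec24d* at 0.97 ± 0.18 (adjusted p = 0.00242) and *Sec23b* at 0.67 ± 0.17 (adjusted p = 0.0203). *Sec23b* was not called with FGF21 without control library 2 (0.57, adjusted p = 0.141) or 3 (0.66, adjusted p = 0.0908), both FGF21-treated, nor with vehicle without control library 5 (0.58, adjusted p = 0.00321), where it was at the fold limit. With FGF21 and only 4-digit libraries, neither was called (*Sec24d* 0.86, adjusted p = 0.077, and *Sec23b* 0.61, adjusted p = 0.15), and without the 3 libraries of steepest length slope *Sec23b* was not (0.66, adjusted p = 0.104).

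Of 10 targets of ATF4 and CHOP, 4 were called higher with vehicle and 0 lower, against 5.12% and 3.36% of all genes. Their median log2 fold change was 0.85, and 8 of 10 were above 0. *Atf4* itself ran from 62.62 to 69.65 CPM (mean 65.7) in vehicle-treated controls. It was at 51.66 to 59.22 CPM (mean 55.1) in vehicle-treated *Lmna* ADKO livers, lower without overlap. How many of all genes were lower without overlap was not computed. *Ddit3*, the CHOP gene, had means of 6.93 and 7.09 CPM in these groups. The largest changes among the targets were in *Ddit4*, an inhibitor of mTOR signaling (2.16 ± 0.36, edgeR adjusted p = 0.000255), *Psat1* of serine synthesis (1.55 ± 0.27, adjusted p = 0.000212), and the transcription factor gene *Atf3* (1.17 ± 0.27, adjusted p = 0.00384). *Psat1* was low, at 0.34 to 1.01 CPM in vehicle-treated controls, with as few as 7 counts. With FGF21, edgeR called 0 and DESeq2 called 1 of the 10, and 2 had an unadjusted p under 0.05, against 16.9% of all genes. The 2 with the highest mean log2 CPM over the 24 libraries were *Atf5* (0.40 ± 0.20, adjusted p = 0.302) and *Sesn2* (0.17 ± 0.18, adjusted p = 0.687). The median log2 fold change of the 10 targets with FGF21 was 0.42, and 9 of 10 were above 0. In FGF21-treated controls, *Ddit4*, *Psat1*, and *Atf3* had means of 10.8, 0.74, and 2.38 CPM. Their means in FGF21-treated *Lmna* ADKO livers were 15.1, 1.49, and 5.26 CPM.

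Of 14 chaperones of the cytosol and mitochondria, edgeR called 0 and DESeq2 called 1 with vehicle, and 3 had an unadjusted p under 0.05, against 27% of all genes. Their median was -0.03. The 2 with the highest mean log2 CPM over the 24 libraries were *Hspa8* (-0.32 ± 0.13, edgeR adjusted p = 0.116) and *Hsp90ab1* (-0.21 ± 0.13, adjusted p = 0.333). With FGF21, 0 were called in edgeR or DESeq2 and 1 had an unadjusted p under 0.05, against 16.9% of all genes. The values of these 2 genes were then -0.54 ± 0.16 (adjusted p = 0.0522) and 0.02 ± 0.16 (adjusted p = 0.995).

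**Figure D4:**
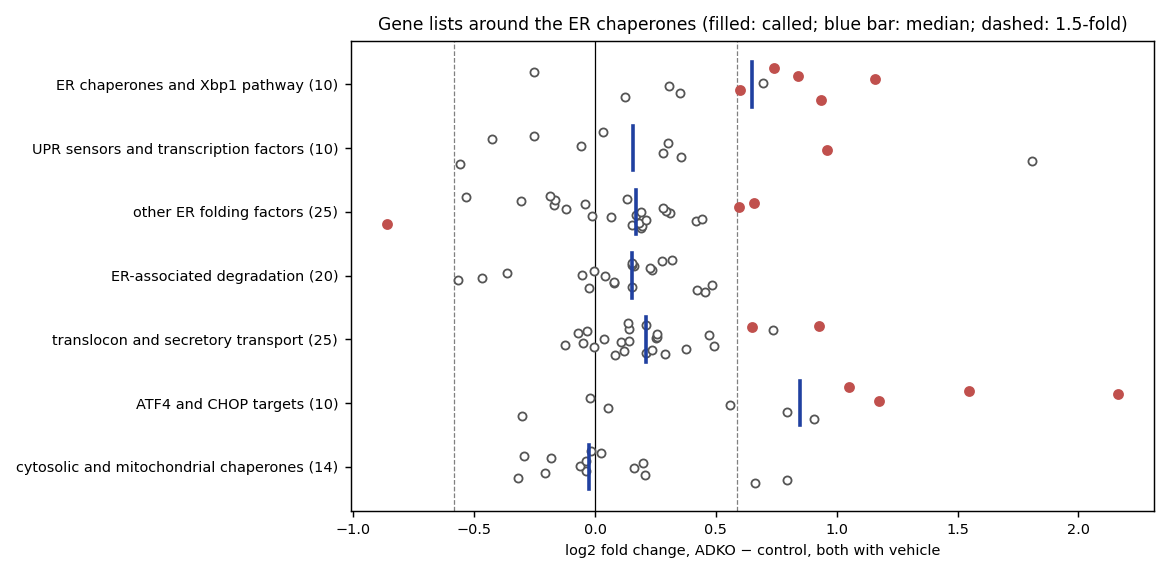
log2 fold changes (horizontal axis) between vehicle-treated *Lmna* ADKO and control livers for each gene (points) of 7 lists, with the number of genes in parentheses; filled points were called (edgeR), blue bars are medians, and dashed lines mark 1.5-fold. The median was 0.65 for the 10 ER chaperone and Xbp1 pathway genes and -0.03 for the cytosolic and mitochondrial chaperones.

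The genes whose pattern over the 24 libraries was most like the mean of the 10, each standardized, were sought among 9914 other genes whose log2 CPM averaged 2 or more. They were *Ero1lb* (Pearson r = 0.87), *Tram1* (r = 0.869), *Dnajc3* (r = 0.863), *Dnajb11* (r = 0.848), and *Syvn1* (r = 0.827). The measure describes these libraries, which share groups, and includes the difference between genotypes. *Syvn1*, which encodes a ubiquitin ligase of ER-associated degradation, had a log2 fold change of 0.42 ± 0.14 (edgeR adjusted p = 0.0397) with vehicle, and the J-domain gene *Dnajb11* had 0.29 ± 0.15 (adjusted p = 0.21).

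RNA levels of some cell type markers differed between genotypes as well. Summed over 7 stellate cell and fibroblast markers, levels were 64.7 to 163.2 CPM in vehicle-treated controls and 108.6 to 250.9 CPM in vehicle-treated *Lmna* ADKO livers, and 4 of 7 markers were called higher. The 5 cholangiocyte markers summed to 27.0 to 51.2 and 85.8 to 195.6 CPM, with 1 called (*Spp1*). These sums were mostly *Spp1*, with means of 32.7 CPM in controls and 116.2 CPM in *Lmna* ADKO livers. *Krt7*, *Krt19*, *Epcam*, and *Sox9* had means of 0.63 to 2.85 CPM in these groups and were not called. Of the 6 hepatocyte markers, 2 were called lower (*Cps1* and *Serpina1a*). Among all genes, 5.12% were called higher and 3.36% lower. With FGF21, the stellate and fibroblast sum was 64.7 to 90.9 CPM in controls and 79.5 to 312.7 CPM in *Lmna* ADKO livers, and 1 hepatocyte marker was called lower. Of the 7 stellate and fibroblast markers, 0 were then called in edgeR or DESeq2. An unadjusted p under 0.05 was found for 6 of 7, all higher, against 16.9% of all genes in either direction. The cholangiocyte sums with FGF21 were 32.2 to 38.4 CPM in controls and 50.3 to 241.3 CPM in *Lmna* ADKO livers, and the endothelial sums were 241.7 to 249.2 and 154.9 to 218.0 CPM, neither with an overlap. The cholangiocyte sums were again mostly *Spp1*, with means of 30.6 and 81.4 CPM. Only 3 controls had FGF21, and no share over all genes was computed for such sums. Of the cholangiocyte and the endothelial list each, edgeR called 0 and DESeq2 called 1 with FGF21. An unadjusted p under 0.05 was found for 2 of 5 and 1 of 4 genes, against 16.9% of all genes. None of the 10 B and plasma cell markers, a cell type rich in ER, was called with vehicle in edgeR or DESeq2 and 0 had an unadjusted p under 0.05, with sums of 32.3 to 78.8 CPM in controls and 29.8 to 62.8 CPM in *Lmna* ADKO livers. The macrophage and endothelial lists had 0 called in edgeR with vehicle, with 3 of 7 and 3 of 4 genes at an unadjusted p under 0.05, against 27% of all genes. Of these, 1 in each list was higher and the others were lower. DESeq2 called 1 of the macrophage and 0 of the endothelial markers. Of the 6 pancreatic acinar markers counted, 2 were called lower and at least 4 were at or under 3 counts in every library of each group, and the 4 adipocyte markers summed to at most 3.61 CPM in any library. In bulk liver, fewer cells of a type and less RNA per cell cannot be told apart, and the part of these markers in the chaperone differences was not tested. Libraries held 19863304 to 21510054 reads on genes. A slope on log2 exonic length was taken of log2 CPM minus each gene's median in its genotype, over 9694 protein-coding genes. This slope was lowest in 3 libraries (vehicle-treated control 3, FGF21-treated control 3, and FGF21-treated *Lmna* ADKO 7), at -0.154, -0.289, and -0.331, against -0.109 to 0.128 in the other 21. The value of vehicle-treated control 3 lay near the lowest of the others. Without these 3 libraries, *Manf* (1.198, adjusted p = 0.000865) and *Hspa5* (0.95, adjusted p = 0.00203) stayed higher with vehicle, *Dnajb9* was under the fold limit (0.55, adjusted p = 0.0107), *Creld2* passed (0.88, adjusted p = 0.0422), and *Manf* did not pass with FGF21 (1.15, adjusted p = 0.0728).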

How the data were processed

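Livers were profiled by polyA-selected, strand-specific RNA-Seq. The authors deposited 1 table of counts per gene, without normalization. The submitters' processing notes name cutadapt 4.8, FastQC 0.11.8, STAR 2.7.8a, RSEM 1.3.3, and build GRCm38. If RSEM gave the counts, they are estimated counts that were rounded before deposit. The methods name Ensembl annotation and removal of genes with 0 counts in all samples. Labels and methods differ on the sequencing provider. Here, counts of 23972 genes went into 1 fit of the 4 groups in edgeR 4.0.16 (R 4.3.3; TMM, robust glmQLFit). P-values were adjusted by Benjamini-Hochberg over the whole table. A call required an adjusted p under 0.05 and a change of more than 1.5-fold. The SE was derived from the log2 fold change and its F statistic. CPM are counts per 1e+06 reads of the TMM-scaled library, and log2 CPM add a prior count of 2. Alternatives were DESeq2 1.42.0, its size factors, filterByExpr, the p threshold alone, only the groups compared, the number series or gene-length slope as a covariate, only 4-digit libraries, 3 libraries left out, and each library left out. The 67 pairs of libraries within groups had a chi-square per degree of freedom of 14.1 to 196, and none was merged. The 10 genes and all lists were chosen with earlier results of these data known. Named were all 10 genes, the sensors, and per list up to 3 called genes with the largest change, or the 2 of highest mean log2 CPM where none was called. *Syvn1* and *Dnajb11* are among the 5 genes named for likeness, and Cps1, Serpina1a, and Spp1 were named after their values were seen. The table symbol *Ero1lb* is also known as Ero1b. Of 9 acinar markers listed, 6 were counted.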

Additional observations from a re-analysis of the deposited data

Results flagged for a closer look

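Within each group of 4 to 10 libraries, the highest and lowest library of each of the 10 genes were compared with the nearest other library, in 30 sets. In 1 set, a library stood apart by Dixon's test. This was *Herpud1* in FGF21-treated *Lmna* ADKO library 3, the lowest of 8 at a log2 CPM of 8.33 (321.5 CPM), with a gap of 0.559 of the group's range, above the 95% critical value for 8 libraries. The next library was at 461.7 CPM. Chance flags about 1 in 20 such sets.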

How the results depend on the processing

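The count of 5 genes called in *Lmna* ADKO against control with vehicle fell to 3 with the number series as a covariate, was 5 under the 7 other alternatives, and was 3 to 5 when 1 library was left out. With FGF21, the count of 1 became 2 with DESeq2 and 0 with the number series as a covariate, with only 4-digit libraries, with only the groups compared, or without the 3 libraries of lowest length slope, and was 0 to 1 when 1 library was left out. The counts of 0 for both treatment comparisons and the interaction stayed at 0 under each alternative and with each library left out. No paired analysis was possible because the animal numbers of the groups are not shared. Over all genes, alternatives gave 1604 to 3623 calls with vehicle against 2033, 307 to 1006 with FGF21 against 690, 0 to 38 for FGF21 in controls against 13, 0 to 15 in *Lmna* ADKO mice against 0, and 0 to 11 for the interaction against 1. With 1 library left out these were 1723 to 2083, 339 (without FGF21-treated control 3) to 1149 (without FGF21-treated *Lmna* ADKO 7), 3 (without FGF21-treated control 2) to 26 (without vehicle-treated control 6), 0 to 61 (without FGF21-treated *Lmna* ADKO 3), and 0 to 5. The causes were not tested.

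Values that changed sign were all uncalled. With the number series as a covariate, FGF21 against vehicle in controls gave 0.073 for *Hsp90b1*, -0.058 for *Dnajb9*, and 0.14 for *Hyou1*, FGF21 in *Lmna* ADKO mice gave -0.045 for *Creld2*, and genotype with FGF21 gave 0.036 for *Herpud1*, -0.037 for *Fgf21*, and -0.082 for *Hsp90ab1*. With only 4-digit libraries, *Sdf2l1* in treated *Lmna* ADKO mice was 0.027 and *Hsp90ab1* between genotypes with FGF21 was -0.11. With the length slope, *Creld2* in *Lmna* ADKO mice was -0.10 and *Manf* in controls -0.002. Without the 3 libraries, *Creld2* (-0.14) and *Herpud1* (-0.014) in *Lmna* ADKO mice, and *Manf* (-0.11) and *Hyou1* (0.036) in controls, changed sign. Leaving out 1 library gave, for FGF21 in controls, -0.032 to 0.244 for *Hspa5*, -0.076 to 0.102 for *Dnajb9*, -0.14 to 0.46 for *Creld2*, -0.15 to 0.27 for *Manf*, and -0.476 to 0.024 for *Hyou1*. In *Lmna* ADKO mice it gave -0.168 to 0.098 for *Sdf2l1*, -0.14 to 0.13 for *Creld2*, -0.174 to 0.052 for *Manf*, and -0.065 to 0.185 for *Herpud1*. Between genotypes with FGF21 it gave -0.81 to 0.18 for *Ern1*, -0.056 to 0.626 for *Fgf21*, -0.044 to 0.085 for *Hsp90ab1*, and -0.066 to 0.460 for *Sesn2*.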
